A study of Mus musculus with 4 samples.

Results

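The libraries compared here are the 2 unstimulated ones of a series of 4, bulk RNA sequencing of mouse cells labelled WT or Yap KO. They were picked by title alone, as the unstimulated Yap KO library and the unstimulated WT library, with 1 library a side. The unstimulated WT cells and the unstimulated Yap KO cells both came from spleen and lymph node, and the RNA was taken from cultured cells. The other 2 libraries are the stimulated WT and Yap KO cells, whose titles also carry the number 24 with no unit. Every title carries the replicate number 1, and neither a strain, an age, a sorted cell type, a Cre driver, the deleted exons nor the number of pooled animals is given in the sources used here. Genotype therefore cannot be told apart from animal, culture or library, and no p-value was computed for any gene. Each value below is 1 library's value, and its 95% interval covers the counting of reads only.

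YAP is a transcriptional coactivator that has no DNA-binding domain of its own. It acts in the nucleus with TEAD factors when the Hippo kinases MST and LATS do not phosphorylate it. In T lymphocytes it has been studied in activation and in regulatory T cells. Resting T cells of spleen and lymph node are for the most part naive cells, which keep the lymph node homing receptor CCR7. Memory-like CD8 T cells carry more CD44, more of the interleukin 2 and 15 receptor chain CD122 and more CXCR3, and express the T-box factors T-bet and Eomes. Low-level type I interferon in resting animals keeps a set of antiviral genes switched on in such cells.

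Reads in genes numbered 22088392 in the WT library and 25419974 in the Yap KO library, or 35.6 and 37.6% of all entries of each table. Reads outside any gene took 52.5 and 50.8%. The largest share of any gene was 2.14 and 1.66%. CPM stands for reads per 1000000 reads in genes after scaling between libraries. A count of 0 allows up to 3 reads, which is 0.131 and 0.115 CPM in WT and Yap KO.

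Yap1 itself could not check the labels. It had 1 and 0 reads in WT and Yap KO, and its paralog Wwtr1, which encodes TAZ, had 0 and 0. Of the TEAD factors that YAP binds, Tead2 had 34 and 44 reads and Tead4 had 0 and 0. Tead3 had 0 and 1 and Tead1 had 0 and 20. Tead1 was thus read in the Yap KO library and not in the WT library. The 95% interval of its log2 ratio of Yap KO over WT began at 2.12. T cell genes were plentiful in both libraries, and the cells carried the CD8 and hardly the CD4 coreceptor. Cd8a, the alpha chain of CD8, was at 821 CPM in the WT library and 783 in the Yap KO library, and Cd8b1, its beta chain, at 1329 and 1512 CPM. Cd4 had 0 and 3 reads, and Cd3e, a signalling chain of the T cell receptor, stood at 901 and 954 CPM. None of 24 kept T cell receptor and coreceptor genes differed 2-fold between the libraries, and their median log2 ratio of Yap KO over WT was 0.03. Among the reads of beta-chain V segments, 17033 of 17159 in WT (99.3%, exact 95% interval 99.1 to 99.4) and 18246 of 18525 in Yap KO (98.5%, 98.3 to 98.7) fell on Trbv12-1. Alpha-chain reads were spread, with Trav14-1 at the top at 9.86 and 11.03% of them. The same beta V segment thus dominated both libraries, while Trbv3 had 156 reads in Yap KO (0.842%) and 0 in WT.

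A gene was kept where the 2 unstimulated libraries held at least 20 reads of it together, which left 15163 genes. It was called higher or lower where Yap KO and WT were at least 2-fold apart and the 95% interval of the ratio excluded no difference. By this rule 1281 genes (8.45% of those kept) were called, 692 higher in Yap KO (4.56%) and 589 lower (3.88%). The median log2 ratio over all kept genes was 0.03, and 81.1% of them lay within 1.5-fold. At least 4-fold apart were 206 higher and 115 lower genes. The 11488 protein-coding genes split otherwise than the rest, with 526 called higher and 259 lower, against 166 higher and 330 lower of 3675 other genes.

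Calls were concentrated among genes with few reads. Between a mean of 0 and 1 CPM 26.0% of genes were called, between 1 and 10 CPM 13.7%, between 10 and 100 CPM 2.40%, and from 100 CPM up 0.685%. In that last class 8 of 2336 genes were called higher and 8 lower. A call among highly expressed genes, such as Il2rb, Cxcr3, Ccl5 or Fos, was accordingly rare in these libraries. List members named below with a mean under 10 CPM lie in the classes where 13.7 or 26.0% of all genes were called.

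**Figure D1:**
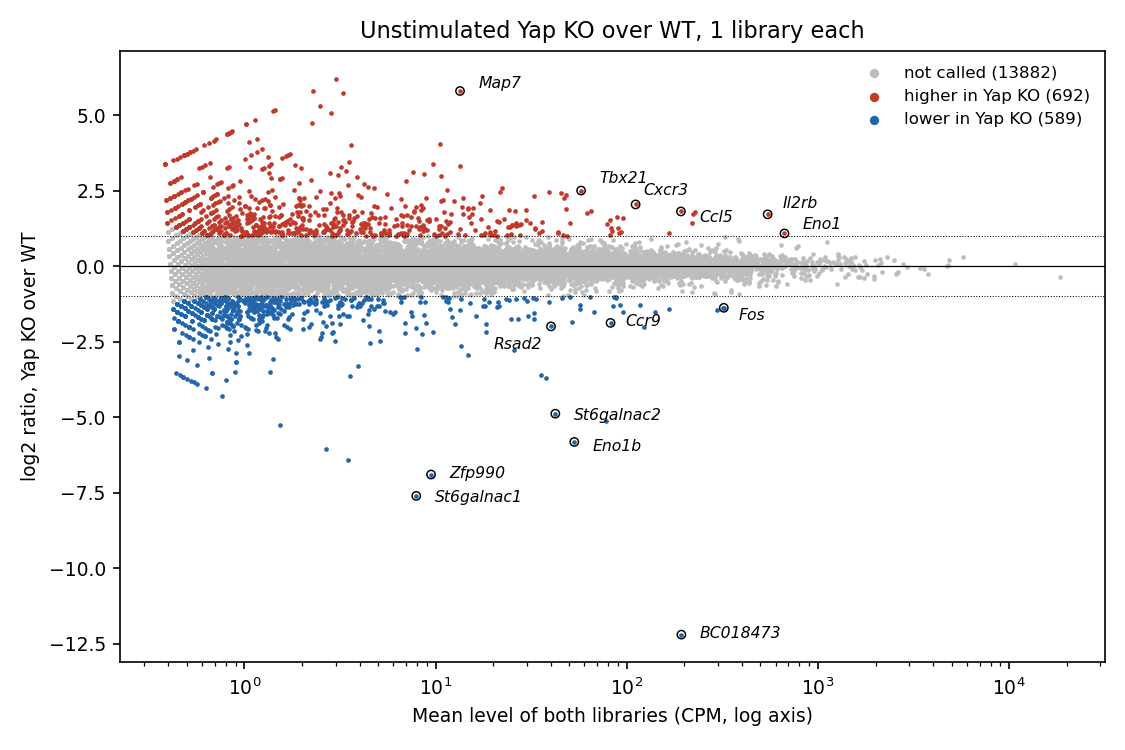
Each point is 1 of the 15163 kept genes, with the mean level of both unstimulated libraries in CPM (log axis) across and the log2 ratio of Yap KO over WT upward. Dotted lines mark 2-fold. The 692 genes called higher and 589 called lower spread widely at low levels, and few lie beyond 2-fold from 100 CPM up. The ratio drawn for genes with 0 reads in 1 library, BC018473 and St6galnac1 among those labelled, depends on the prior count of 2.

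Genes of memory and effector lymphocytes were higher in Yap KO, while most genes of naive T cells lay within 2-fold. Of 33 kept memory and effector surface genes 17 were called higher and 1 lower, against 4.56 and 3.88% of all kept genes, with a median log2 ratio of 1.05 against 0.03. The 2 remaining members of that list, S100a4 and Klrc3, had too few reads to be kept. Of 27 naive and homing genes none was called higher and 2 were called lower, with a median of -0.09. In bulk RNA, more cells of a type and more RNA per cell cannot be told apart, here or in the results that follow.

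Transcription factors of the memory and effector program were in part higher in Yap KO. Tbx21, which encodes T-bet, was at 17.2 CPM in the WT library and 98.2 in the Yap KO library, a log2 ratio of 2.51 (2.36 to 2.67). Zfp683, which encodes the tissue-residency factor Hobit, had 12 and 132 reads in WT and Yap KO, a ratio of 3.09 (2.43 to 4.27). Runx2, a factor of long-lived memory CD8 T cells, was at 6.37 and 21.4 CPM in WT and Yap KO, a ratio of 1.74 (1.49 to 2.02). Each of these 3 was far apart relative to its counting interval. Hopx, a small homeodomain protein of effector cells, was at 43.5 and 115 CPM with a ratio of 1.39 (1.29 to 1.50), although 27.2% of its exon length lies opposite another gene. Irf8, which is also a dendritic cell marker, was at 16.1 and 33.4 CPM. In all, 7 of 28 kept (30 looked up) memory and effector factors were called higher and none lower, against 4.56 and 3.88% of all kept genes, with a median of 0.37. Eomes, the partner T-box factor, was also among the 7, at 51.7 and 115 CPM. Tcf7, which encodes the naive and stem-like memory factor TCF-1, was at 1519.9 and 1526 CPM, a log2 ratio of 0.01 (-0.01 to 0.03), and Id2, an effector factor, had -0.20.

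Receptors for inflammatory chemokines were higher in Yap KO, with 10 of 11 kept ratios above 0. Of 14 such genes 11 were kept, with a median log2 ratio of 1.44. Of these, 8 were called higher and 1 lower, against 4.56 and 3.88% of all kept genes. Cxcr3, which guides T cells to the interferon-induced chemokines CXCL9 and CXCL10, was at 43.2 CPM in the WT library and 179 in the Yap KO library, a ratio of 2.05 (1.95 to 2.15). Ccr2, a receptor of CC chemokines on effector and memory cells, was at 5.8 and 29.4 CPM, with a ratio of 2.32 (2.07 to 2.62). Cxcr5, the receptor for the follicle chemokine CXCL13, was at 19.3 and 53.1 CPM. Ccr3, a receptor best known from eosinophils, had 0 and 26 reads, at least 7.64-fold higher in Yap KO. The single member called lower was Ccrl2, an atypical receptor, at 7.29 and 3.35 CPM. Outside that list, Gpr15, which guides T cells to the colon, was at 1.48 and 13.7 CPM, with 12.5% of its exon length opposite another gene.

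The homing receptors of naive cells split. Ccr9, the receptor for the gut and thymus chemokine CCL25, was at 129 CPM in the WT library and 35.1 in the Yap KO library, a log2 ratio of -1.88 (-1.99 to -1.77), with 19% of its exons opposite another gene. Sox4, a factor of immature lymphocytes, was at 12.7 and 3 CPM, a ratio of -2.06 (-2.46 to -1.72), and 54.6% of its exons lie opposite a noncoding gene. These were the 2 naive and homing genes called lower. Ccr7, the receptor that brings naive cells into lymph nodes, had a ratio of 0.01 (-0.03 to 0.04). Itgae, the alpha chain of the integrin CD103 that binds E-cadherin and that TGF-beta induces, was at 122 and 48.4 CPM, a ratio of -1.33 (-1.43 to -1.23), and was the surface gene called lower in the memory list.

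**Figure D2:**
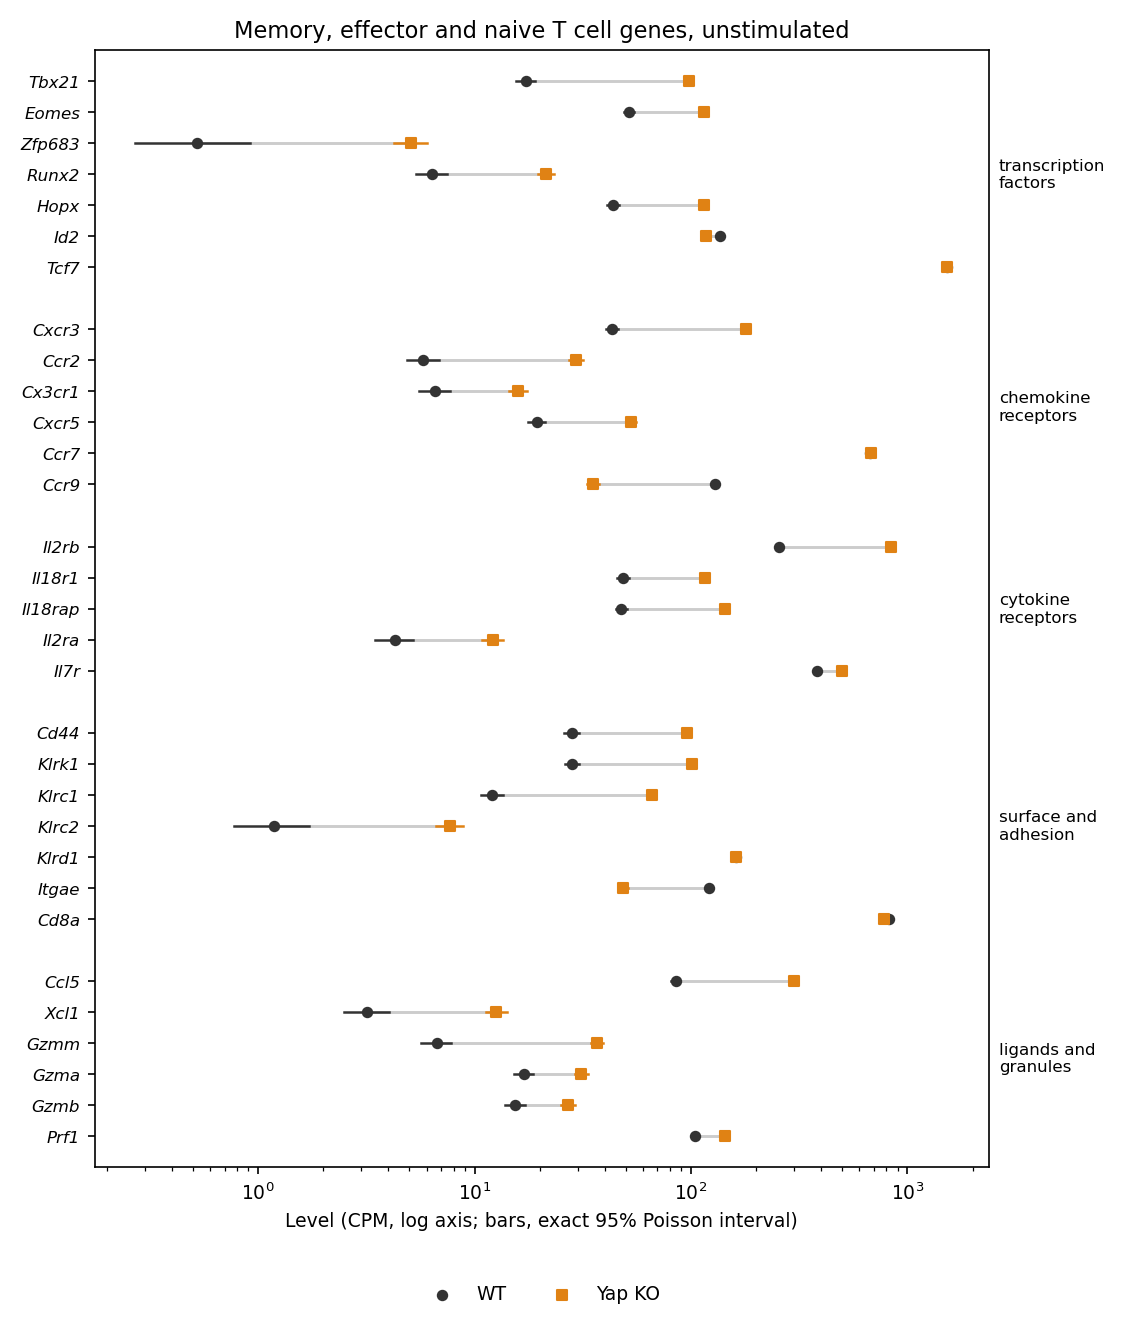
Levels in CPM (log axis) of memory, effector and naive T cell genes in the unstimulated WT (circles) and Yap KO (squares) libraries, 1 library each, with exact 95% Poisson intervals as bars that are often shorter than the symbols. A square covers the circle where both levels are alike, as for Tcf7, Ccr7 and Klrd1. Most squares lie to the right of the circles, with Ccr9 and Itgae to the left.

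Cytokine receptors differed by chain. Il2rb, which encodes CD122, was at 254 CPM in the WT library and 837 in the Yap KO library, a log2 ratio of 1.72 (1.68 to 1.76), and was among the 8 genes with the largest difference in CPM. Il18r1 and Il18rap, the 2 chains of the interleukin 18 receptor, were at 48.5 and 116 CPM and 47.7 and 144 CPM, with ratios of 1.26 (1.16 to 1.36) and 1.59 (1.49 to 1.69). Il2ra, the high-affinity chain CD25, was at 4.28 and 12.2 CPM. These 4 were among the 5 called higher of 23 kept cytokine receptors, none being called lower, against 4.56 and 3.88% of all kept genes. The median was 0.39. Of the 5, Il2rb, Il18r1 and Il18rap are also on the memory and effector surface list. The fifth was Csf2rb, the shared beta chain of the GM-CSF receptor family, with 14 and 44 reads. Il7r, the interleukin 7 receptor of naive and memory cells, had 0.39, and Il2rg, the common gamma chain, had 0.06.

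Surface and adhesion genes of antigen-experienced cells, from the memory and effector surface list counted above, were higher in part. Cd44, the hyaluronan receptor used to define memory T cells, was at 28.1 CPM in the WT library and 95.8 in the Yap KO library, a log2 ratio of 1.77 (1.64 to 1.90). S100a6 and Lgals1, a calcium-binding protein and galectin 1, were at 6.24 and 38.3 CPM and 20.4 and 76 CPM, with ratios of 2.60 (2.36 to 2.88) and 1.90 (1.75 to 2.05). Ahnak, a large scaffold protein, and Anxa2, an annexin, had ratios of 1.80 and 1.53. Itgb1, the beta1 integrin chain, was at 107 and 227 CPM. Klrd1, which encodes CD94 and is also on the list, was at 161 and 161 CPM, a ratio of 0.00 (-0.06 to 0.07). Ly6c2, which memory CD8 T cells and monocytes express, was at 814 and 1414 CPM, a large difference in level with a ratio under 2-fold, 0.80 (0.77 to 0.82).

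Receptors of the killer lectin families, through which natural killer cells and memory CD8 T cells sense class I molecules and stress ligands, were higher in Yap KO where they were called. Of 24 such genes 14 were kept, with a median log2 ratio of 1.47. Of these, 8 were called higher and none lower, against 4.56 and 3.88% of all kept genes. Klrc1, Klrc2 and Klrk1, all called higher, are also on the memory and effector surface list. Klrc1, which pairs with CD94 as the inhibitory receptor NKG2A, was at 12 CPM in the WT library and 65.9 in the Yap KO library, a ratio of 2.44 (2.27 to 2.64). Klrc2, the activating relative NKG2C, had 27 and 199 reads, and Klrk1, which encodes NKG2D, was at 28.2 and 102 CPM, a ratio of 1.85 (1.72 to 1.97). Klre1 was at 3.27 and 13.5 CPM. Klra8 and Klri2 had 2 and 62 and 2 and 40 reads, so that they were close to undetected in WT. Near-identical relatives in this gene cluster can take reads from each other. Of 13 kept natural killer cell markers 7 were called higher and none lower, against the same shares of all kept genes. Levels over that list summed to 87.6 and 193 CPM, most of it Eomes, given above, which memory-like CD8 T cells also express. Ncr1, which defines natural killer cells, had 2 and 15 reads. Tyrobp, the adaptor DAP12, had 27 and 105 reads. The part of natural killer cells in these differences was not tested.

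Genes of gamma-delta and type 17 T cells were higher as well, and no kept member of the list had a ratio below 0. Of 23 genes on the list 19 had an identifier and 15 were kept. Their median log2 ratio was 1.49, with a range of 0.54 to 2.31. Of the 15, 10 were called higher and none lower, against 4.56 and 3.88% of all kept genes. Il23r, the interleukin 23 receptor chain, had 30 and 177 reads, a ratio of 2.31 (1.82 to 2.99). Cd163l1 and 5830411N06Rik, both of the scavenger receptor family of gamma-delta T cells, were at 43.5 and 134 CPM and 103 and 342 CPM, with ratios of 1.62 (1.52 to 1.73) and 1.72 (1.66 to 1.79). Sox13, a factor of the gamma-delta lineage, was at 8.73 and 26 CPM, a ratio of 1.57 (1.35 to 1.81). Among the list members called higher were receptor genes of the gamma chain. Of 4 kept gamma V segments 1 was called, Trgv2, with 55 and 169 reads. Tcrg-V4, Tcrg-V1 and Tcrg-V5, which are not on the list, had -0.29 (-1.24 to 0.61), 0.42 (-0.18 to 1.08) and 0.61 (-0.60 to 2.17). Tcrg-C1 and Tcrg-C2, gamma constant regions on the list, had 147 and 440 and 115 and 389 reads. Trdc, the delta constant region and also a list member, was at 232 and 351 CPM, a ratio of 0.60 (0.55 to 0.64). The delta V segments split, their levels summing to 46 and 43.5 CPM, and none of 5 kept was called. Trdv5 and Trdv4 had 0.40 (0.004 to 0.81) and 0.57 (-0.14 to 1.37), and Trdv2-1 had -0.64 (-1.25 to -0.09). Trdv2-2 was at 25.8 and 25.3 CPM, a ratio of -0.03 (-0.19 to 0.14), and Trdv1 at 12.2 and 9.62 CPM, a ratio of -0.34 (-0.60 to -0.09). The cytokine genes of this lineage had few or no reads, 0 and 0 for Il17a and 4 and 2 for Il17f.

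Chemokine ligands differed in both directions, while nearly all kept granule genes had ratios above 0. Ccl5, which memory CD8 T cells store as RNA for rapid release, was at 84.9 CPM in the WT library and 299 in the Yap KO library, a log2 ratio of 1.82 (1.74 to 1.89). Xcl1, which draws cross-presenting dendritic cells, was at 3.19 and 12.6 CPM, a ratio of 1.96 (1.62 to 2.37), with 18.7% of its exons opposite another gene. Cxcl9 had 8 and 32 reads, and Cxcl10, an interferon-induced chemokine, was at 18.4 and 8.62 CPM, a ratio of -1.09 (-1.34 to -0.86). Thus 3 of 9 kept chemokine ligands, of 13 looked up, were called higher and 1 lower, against 4.56 and 3.88% of all kept genes. Of 22 cytotoxic granule genes 17 were kept, of which 1 was called higher and none lower, with a median of 0.44 and 16 ratios above 0. The called gene was Gzmm, granzyme M, at 6.68 and 36.7 CPM, a ratio of 2.44 (2.21 to 2.71). Gzma, Gzmb and Prf1, granzymes A and B and perforin, had 0.88, 0.81 and 0.46. Ctsw, a cathepsin of killer cells, was at 605 and 971 CPM, a ratio of 0.68 (0.65 to 0.71). Of 24 cytokine genes 11 were kept, and 2 of them were called higher and none lower. They were Fasl, the ligand of the death receptor Fas, at 6.28 and 13.3 CPM, and Tnfsf11, which encodes RANKL, with 17 and 52 reads. Ifng, interferon gamma, had 114 and 203 reads, a ratio of 0.64 (0.31 to 1.00).

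Inhibitory receptors moved both ways. Of 17 kept 3 were called higher and 2 lower, against 4.56 and 3.88% of all kept genes, with a median log2 ratio of -0.01. Nt5e and Entpd1, the ectoenzymes CD73 and CD39 that turn extracellular ATP into adenosine, were at 19.8 and 46.3 CPM and 2.49 and 7.7 CPM. Pdcd1lg2, the PD-1 ligand PD-L2, had 3 and 36 reads. Cd200 and Lag3, an inhibitory ligand and a class II-binding checkpoint, had 109 and 25 and 34 and 9 reads, both lower in Yap KO. Of 16 kept costimulatory receptors none was called, with a median of 0.04. Of 12 kept regulatory T cell markers 2 were called higher and 2 lower. Foxp3, the lineage factor, had 290 and 208 reads, a ratio of -0.66 (-0.92 to -0.40), with 18.7% of its exon length opposite another gene. Gpr83, a receptor found on regulatory T cells, had 36 and 1 reads, and Nrp1, neuropilin 1, had 40 and 245 reads. Zbtb7b, which directs the CD4 lineage, had 9 and 54 reads, 1 of 2 called higher among 6 kept CD4 T cell markers.

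**Figure D3:**
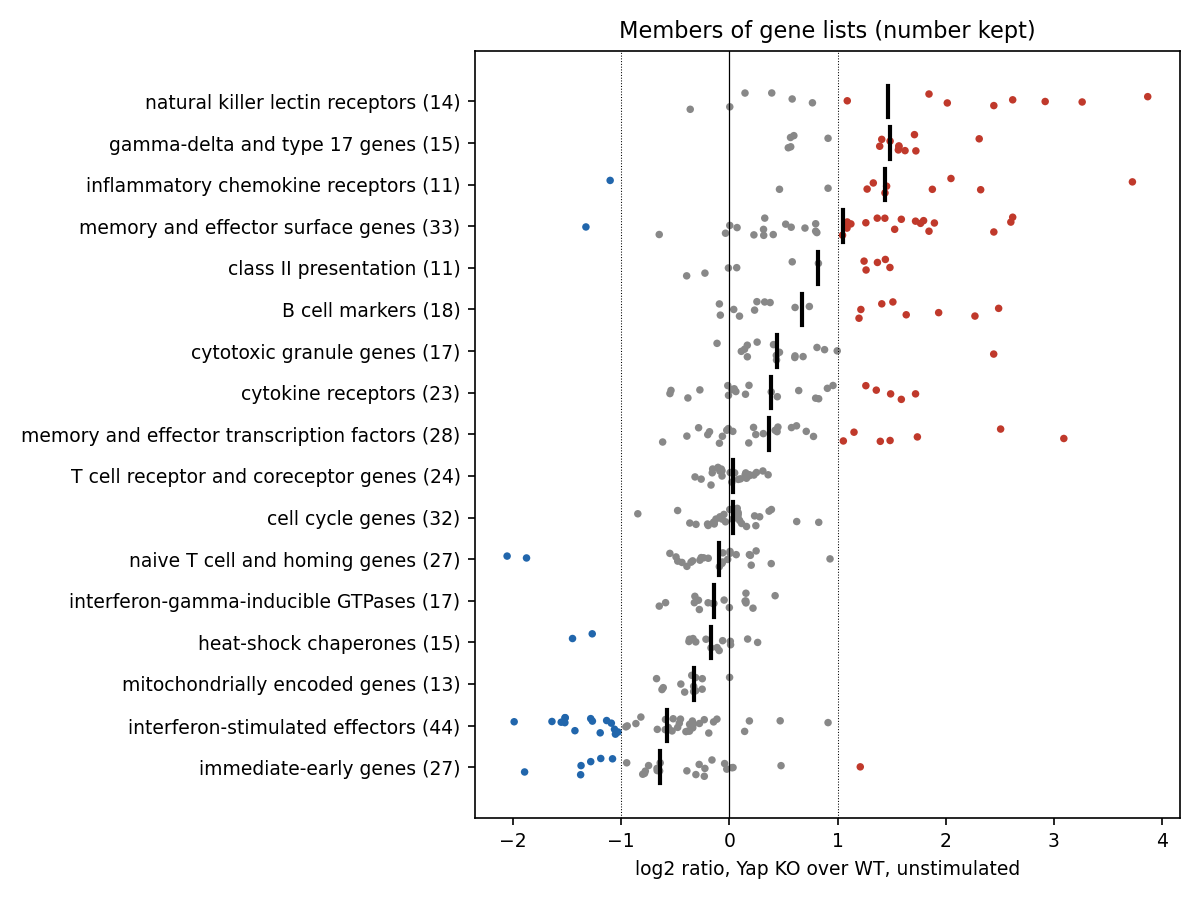
Each point is a kept member of 1 of 17 gene lists, with its log2 ratio of unstimulated Yap KO over WT across and the number kept in brackets. Red points were called higher, blue points lower and grey points were not called. Black bars are list medians and dotted lines mark 2-fold. Medians run from 1.49 for gamma-delta and type 17 genes down to -0.65 for immediate-early genes.

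Interferon-stimulated genes were lower in Yap KO, and unevenly so. Of 44 kept effector genes, the proteins that carry out the antiviral response, 15 were called lower and none higher, against 3.88% of all kept genes called lower. Their median log2 ratio was -0.58, 40 of the 44 ratios were below 0, and their summed level in Yap KO, 4173 CPM, was 0.694 times the 6015 CPM of WT. The 15 members called lower ran from Rsad2 at -1.99 to Cmpk2 at -1.03. Rsad2, which encodes the antiviral enzyme viperin, was at 64.2 CPM in the WT library and 16.1 in the Yap KO library. Mx2, an antiviral GTPase, was at 24.8 and 7.89 CPM, a ratio of -1.64 (-1.89 to -1.42). Ifit3, which binds foreign RNA with its relatives, was at 209 and 72.8 CPM, a ratio of -1.52 (-1.60 to -1.45), and Oas2, an RNA-activated synthetase, was at 142 and 49.5 CPM. Ifit3 has a near-identical neighbour, Ifit3b, with 1124 and 432 reads, and reads may pass between them. Members at the other end of the list were Ly6a, Ifi27 and Oas1g, with 0.18, 0.47 and 0.91, none of them called.

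The factors that drive these genes were closer to equal. Of 16 kept sensors and inducers 1 was called lower and none higher, against 3.88 and 4.56% of all kept genes. Their median log2 ratio was -0.08. The called gene was Tlr7, a sensor of single-stranded RNA, at 29.5 and 12.8 CPM, a ratio of -1.20 (-1.40 to -1.01). Irf7, the factor that amplifies interferon production, had -0.90 (-0.95 to -0.85). Irf9 and Stat2, which carry the receptor signal to DNA together, had -0.09 and -0.45. The receptor chains Ifnar1 and Ifnar2 had 0.27 and 0.35. None of the 17 interferon-gamma-inducible GTPases was called, with a median of -0.14 and a range of -0.65 to 0.42. Class I presentation genes, which interferon also raises, gave 0 calls of 20 with a median of 0.15. Among them H2-Q6 and H2-Q7, near-identical nonclassical class I genes, had -0.59 and -0.37, and H2-D1, a classical one, had 0.21.

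Promoters of these genes are shown for 3 of the members called lower, to make visible the element that the factor ISGF3 and the IRF family bind. The windows run from 250 bases before to 50 after the RefSeq start (GRCm38.p6), written 5′ to 3′ in the direction of the gene, and capitals mark 2 GAAA blocks with any 2 bases between them, on either strand. On the opposite strand the element reads as 2 TTTC blocks.
Rsad2 (chr12:26456403-26456702, minus strand): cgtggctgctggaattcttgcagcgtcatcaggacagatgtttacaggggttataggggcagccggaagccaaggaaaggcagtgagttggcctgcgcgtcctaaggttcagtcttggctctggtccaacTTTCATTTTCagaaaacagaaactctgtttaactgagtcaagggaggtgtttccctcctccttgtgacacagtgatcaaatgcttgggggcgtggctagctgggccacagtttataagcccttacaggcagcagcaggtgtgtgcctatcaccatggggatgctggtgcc
Ifit3 (chr19:34583279-34583578, plus strand): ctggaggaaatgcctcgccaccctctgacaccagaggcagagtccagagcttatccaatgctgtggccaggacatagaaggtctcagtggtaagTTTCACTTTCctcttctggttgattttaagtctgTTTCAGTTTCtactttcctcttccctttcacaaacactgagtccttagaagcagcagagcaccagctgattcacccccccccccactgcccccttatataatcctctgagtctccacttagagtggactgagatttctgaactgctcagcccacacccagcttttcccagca
Slfn5 (chr11:82951852-82952151, plus strand): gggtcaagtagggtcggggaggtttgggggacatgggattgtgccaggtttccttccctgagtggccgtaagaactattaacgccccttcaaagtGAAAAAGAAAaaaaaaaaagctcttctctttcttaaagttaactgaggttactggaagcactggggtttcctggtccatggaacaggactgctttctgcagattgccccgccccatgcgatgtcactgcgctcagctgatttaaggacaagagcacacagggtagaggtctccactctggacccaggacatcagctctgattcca
In Rsad2 the element began 120 bases before the start. In Ifit3 a pair of elements began 156 and 122 bases before the start, and in Slfn5, a Schlafen family gene at 100 and 34.8 CPM, one began 155 bases before. Windows were found for 32 of the 44 effector genes, and 22 of their 39 windows (56.4%, exact 95% interval 39.6 to 72.2) held the element, against 3.44% of all 32851 windows. Among windows of effectors called lower it was 6 of 13, and among those of the other effectors 16 of 26. The interferon-gamma-inducible GTPases, none of which was called, held it in 9 of 11 windows. The letters thus marked interferon genes as a class and did not single out those called lower. A match is a run of letters, not a measured binding site.

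Immediate-early genes, which switch on within minutes of a stimulus or of tissue handling, were lower in Yap KO. Of 27 kept 6 were called lower and 1 higher, against 3.88 and 4.56% of all kept genes, with a median log2 ratio of -0.65 and 23 ratios below 0. Fos, a subunit of the factor AP-1, was at 464 CPM in the WT library and 179 in the Yap KO library, a ratio of -1.38 (-1.43 to -1.33). Fosb, its relative, was at 11 and 2.89 CPM, a ratio of -1.89 (-2.32 to -1.55). Tnfaip3, which encodes the NF-kappaB inhibitor A20, was at 462 and 179 CPM, a ratio of -1.37 (-1.42 to -1.32), and Klf4, a quiescence factor, was at 4.41 and 1.89 CPM. The gene called higher was Ier3, at 4.36 and 10.2 CPM. Jun, the partner of Fos in AP-1, had -0.31, and Myc, a transcription factor of cell growth, had 0.02.

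Inducible heat-shock genes showed the same direction. Hspa1b and Hspa1a, near-identical genes for the inducible chaperone HSP70, were at 434 and 159 CPM and 129.7 and 53.8 CPM, with ratios of -1.45 (-1.50 to -1.40) and -1.27 (-1.36 to -1.18). They were the 2 called lower of 15 kept chaperone genes, with none called higher, against 3.88 and 4.56% of all kept genes. Of the exon length of Hspa1a 19.0% lies opposite another gene. The chaperone median was -0.17. The constitutive Hspa8 had -0.11. Measures of RNA make-up differed between the same 2 libraries. All 13 mitochondrially encoded genes were kept and none was called, 12 of their ratios were below 0, and their levels summed to 10279.6 and 8329 CPM. Gene models awaiting experimental support (the TEC class) gave 111 lower and 15 higher calls of 602, with a median of -0.34, and sense-intronic transcripts 13 lower and 1 higher of 73. The 8 genes with the largest differences in CPM towards WT were all under 2-fold, H2-Q6 and H2-Q7 being given above. Malat1, a nuclear-retained RNA, had -0.42, the mitochondrial mt-Co1, mt-Cytb and mt-Rnr2 had -0.25, -0.31 and -0.23, Lars2, a mitochondrial synthetase gene, had -0.34, and Dgka, a kinase that dampens T cell receptor signals, had -0.36. The part of handling or RNA quality in the immediate-early and heat-shock differences was not tested.

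**Figure D4:**
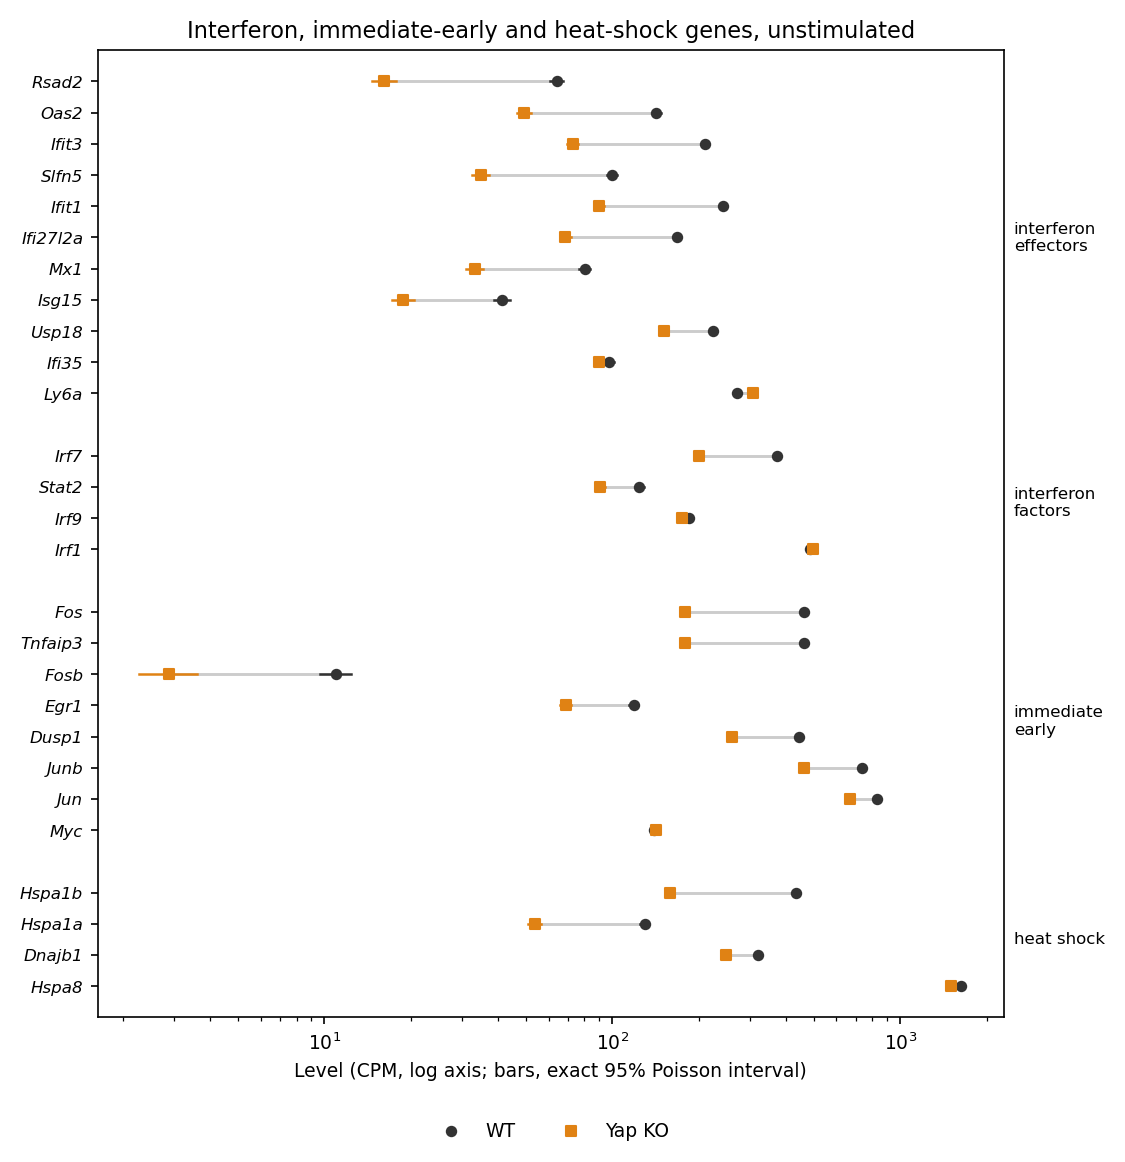
Levels in CPM (log axis) of interferon-stimulated effectors, interferon factors, immediate-early and heat-shock genes in the unstimulated WT (circles) and Yap KO (squares) libraries, 1 library each, with exact 95% Poisson intervals as bars. The squares of Rsad2, Oas2, Ifit3, Fos, Fosb and Hspa1b lie to the left of the circles, whereas those of Irf1, Ly6a, Myc and Hspa8 lie close to them.

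Known YAP and TEAD target genes were in part higher in the library labelled Yap KO. Of 25 such genes with an identifier 11 were kept, and 4 of these were called higher and none lower, against 4.56 and 3.88% of all kept genes, with a median log2 ratio of 0.69. Ccn1, Ccn2 and Ankrd1, the most used reporters of YAP activity, had 0 reads in both libraries. Arhgef17, a guanine nucleotide exchange factor, had 0 and 59 reads, at least 17.3-fold higher in Yap KO, and averaged between 1 and 10 CPM, where 13.7% of all genes were called. Axl, a receptor tyrosine kinase, was at 5.24 and 11.9 CPM, a ratio of 1.17 (0.87 to 1.50), and Nt5e had 1.22 (1.07 to 1.38). Nuak2, a kinase, was at 7.42 and 15 CPM, a ratio of 1.01 (0.75 to 1.28) that dropped just under 2-fold in each of the other scalings tried, to between 0.97 and 0.98. Lats2, both a Hippo kinase and a target, had -0.01 (-0.09 to 0.08). Of 21 kept Hippo components 2 were called higher and none lower, against 4.56 and 3.88% of all kept genes. Their median was 0.05. The 2 were Tead1, given above, and Wwc2, a scaffold of the KIBRA family, with 21 and 55 reads. Tead1 had just the 20 reads needed to be kept, all in Yap KO, and 3 and 5 reads when stimulated. It averaged under 1 CPM, where 26.0% of all genes were called. Wwc2 lost its call with a prior count of 10. Stk4 and Stk3, the MST kinases, had -0.01 and 0.48, and the adaptors Sav1 and Mob1a 0.05 and 0.26.

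TGF-beta pathway genes were mostly close to equal. Of 21 kept 1 was called higher and 1 lower, near the 4.56 and 3.88% of all kept genes. Smad3, which carries the TGF-beta signal to DNA, was at 57.7 CPM in the WT library and 125 in the Yap KO library, a log2 ratio of 1.11 (1.02 to 1.21), and Itgae, named above, was the gene called lower. Of 30 adhesion and actin genes 4 were called higher and 1 lower, against the same shares of all kept genes. Itgb3 and Itga2, integrin chains, were at 58 and 128 CPM and 1.66 and 4.35 CPM, and Itgb1 was the third. The fourth was Map7, which joins microtubules to the motor kinesin 1. Actb and Flna, beta-actin and filamin A, had 0.08 and 0.29. Tmsb4x, thymosin beta 4, had 0.24.

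Genes of growth and division lay within 2-fold with few exceptions. None of the 32 cell cycle genes, 26 nuclear oxidative phosphorylation genes and 47 ribosomal protein genes was called, with medians of 0.04, 0.13 and 0.09. Of 22 glycolysis genes 2 were called higher and 1 lower, against 4.56 and 3.88% of all kept genes, with a median of 0.22. Eno1, enolase, was at 428 CPM in the WT library and 908 in the Yap KO library, a log2 ratio of 1.09 (1.05 to 1.12), Hk2, a hexokinase, had 26 and 65 reads, and Ldhb, a lactate dehydrogenase chain, was at 14.6 and 7.2 CPM. None of the 3 calls was firm, since Eno1 can share reads with a near-identical copy, Eno1b, and Hk2 and Ldhb lost their call with a prior count of 10, at 0.92 and -0.98. Of 16 kept sialyl- and glycosyltransferases 3 were called higher and none lower, against the same shares of all kept genes. Among them were Gcnt1, which builds the core of selectin ligands, with 3 and 24 reads, and Fut7, which completes those ligands, with 37 and 94 reads. St3gal5 had 16 and 43 reads. Fut7 and St3gal5 lost their call with a prior count of 10, at 0.99 and 0.90. Of 21 apoptosis genes 4 were called higher and none lower, again against 4.56 and 3.88% of all kept genes. They were Bik, Bak1 and Bmf, with at most 48 reads in a library, and Fasl. Of the exon length of Bak1 18.2% lies opposite another gene. Bik lost its call with a prior count of 10, at 0.78.

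Class II presentation genes were in part higher in Yap KO, and markers of B and dendritic cells differed in part. Of 11 kept class II genes 5 were called higher and none lower, against 4.56 and 3.88% of all kept genes. Their median log2 ratio was 0.82, with 3 ratios below 0, 2 of them with the whole interval below 0. H2-Ab1, a class II beta chain, was at 27 CPM in the WT library and 73.5 in the Yap KO library, a ratio of 1.44 (1.31 to 1.58). H2-Aa and H2-Eb1, further chains, had 1.37 (1.19 to 1.56) and 1.48 (1.28 to 1.70), and Cd74, the invariant chain, was at 52.8 and 127 CPM. The fifth was Ciita, the master regulator of class II genes, with 54 and 148 reads. Of 18 kept B cell markers 8 were called higher and none lower, against the same shares of all kept genes. Yet the marker levels summed to 1238 and 1228 CPM, most of it Ighm, whose ratio was -0.08. Ms4a1, which encodes CD20, was at 2.18 and 5.93 CPM, and Cd22 at 5.85 and 16.8 CPM. Blnk and Spib, 2 further B cell markers, had 6 and 48 and 4 and 30 reads. Over the 6 B cell markers averaging 10 CPM or more the median was 0.16, against 0.67 over all 18. Of 11 kept dendritic cell markers 5 were called higher and none lower, against the same shares. Their summed level was 774 and 811 CPM. Itgax, which encodes CD11c and is also found on activated CD8 T cells, was at 6.28 and 23.4 CPM. Xcr1, the receptor for XCL1, was at 2.4 and 6.16 CPM, and Fscn1, fascin, had 11 and 44 reads. The part of B and dendritic cells in the class II difference was not tested.

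Markers of other lineages differed in level and direction. Their counts stand beside 4.56% called higher and 3.88% called lower of all kept genes. Between 0 and 1 CPM 26.0% of all genes were called, and between 1 and 10 CPM 13.7%. The 16 monocyte and macrophage markers summed to 849 CPM in WT and 1478 in Yap KO, most of it Ly6c2. Of 8 kept 1 was called, Ccr2. Lyz2 and Csf1r were at 5.93 and 9.16 CPM and 15.8 and 16.7 CPM, while Fcgr1 and Marco had 0 reads in both. Of the exon length of Csf1r 15.1% lies opposite another gene. Of 5 kept neutrophil markers 4 were called lower, all with few reads, and the sum over the list was 7.16 and 2.54 CPM. Of these 4, S100a8 lost its call with a prior count of 10 and with a 99% interval. S100a8 and S100a9, the calprotectin chains, had 15 and 6 and 26 and 5 reads, and Ngp and Cxcr2 had 39 and 9 and 51 and 16 reads. Hbb-bs, a globin, had 34 and 10 reads, and Car2, a carbonic anhydrase of red cells, 207 and 77 reads, the 2 of 3 kept erythroid markers called lower. The plasma cell markers summed to 185 and 145 CPM. Of 11 kept 2 were called higher, Sdc1 and Ighg3, with 14 and 160 and 6 and 65 reads, and Jchain had -0.57. Platelet markers summed to 59 and 129 CPM, nearly all of it Itgb3, the beta3 integrin chain, at 58 and 128 CPM, the 1 called of 2 kept, while Pf4 had 0 reads in both. Stromal and endothelial markers summed to 158 and 138 CPM, nearly all of it Pecam1, an adhesion molecule also found on leukocytes, at 156 and 118 CPM. Of 4 kept 2 were called higher. Col1a2, a collagen chain, had 0 and 44 reads, at least 12.9-fold higher, and Pdgfrb, a platelet-derived growth factor receptor, had 37 and 459 reads, while Col3a1 and Pdgfra were at 0 in both. The part of these cell types in the differences was not tested.

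The highest ratios belonged to genes with few reads in WT. Map7 (chromosome 10 from 20148471 to 20281590, GRCm38) had 9 and 687 reads, 0.393 and 26.4 CPM, a log2 ratio of 5.80 (5.14 to 7.21). Ddr1, a collagen receptor kinase, had 1 and 170 reads, a ratio of 5.72 (4.73 to 12.54). Rab6b, a GTPase of Golgi transport, had 26 and 521, and Tgm2, transglutaminase 2, had 8 and 179, with ratios of 4.05 (3.58 to 4.77) and 4.02 (3.29 to 5.54). Each of these 4 had at most 26 reads in WT and at least 170 in Yap KO. Aqp9, a glycerol channel that memory CD8 T cells use, was at 2.36 and 24.3 CPM, a ratio of 3.32 (2.97 to 3.80). Ctla2b, a cathepsin inhibitor with a near-identical relative Ctla2a, was at 2.31 and 19.1 CPM, and Slc43a1, an amino acid transporter, at 1.79 and 15.6 CPM. Smpdl3b, a membrane phosphodiesterase, Marveld2, a junction protein, Pros1, protein S, and Tmem37 ran from 2.83 for Tmem37 to 3.45 for Smpdl3b.

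The lowest ratios belonged to genes with few or no reads in the Yap KO library. BC018473, an antisense noncoding RNA (chromosome 11 from 116752167 to 116759373, GRCm38), had 8843 and 0 reads, at least 3342-fold lower in Yap KO against the floor of 3 reads. St6galnac1, a sialyltransferase (chromosome 11 from 116765025 to 116775507), had 363 and 0, at least 137-fold lower. St6galnac2, its neighbour (chromosome 11 from 116675303 to 116694868), had 1876 and 70 reads, a log2 ratio of -4.88 (-5.29 to -4.58), with 8.58% of its exons opposite another gene. The 3 genes and the pseudogene Gm11735, with 160 and 0 reads, lie side by side. In a stretch of 9 kept genes chosen around them after their values were seen, these 4 were called lower and none higher, and Jmjd6, which follows St6galnac1, had -0.44. In the stimulated libraries BC018473 had 2889 and 2 reads and St6galnac1 82 and 0, few or none of them again in Yap KO. St6galnac2 had 514 and 140 reads there, a log2 ratio of -1.78 (-2.08 to -1.52), and the difference between the pairs was not tested.

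Other genes far lower in Yap KO lay elsewhere in the genome, some of them still clearly detected in Yap KO. Zfp990, a zinc finger gene, had 432 and 2 reads, and Ncmap, a myelin protein gene, 123 and 0, at least 46.5-fold lower. H60b, a ligand of NKG2D, had 319 and 52 reads, and H2-T3, a nonclassical class I gene whose product binds CD8 alpha chains, 153 and 12. AI506816, a noncoding RNA, had 1607 and 138 reads, a log2 ratio of -3.70 (-3.98 to -3.47). Wnt5b, a Wnt ligand, had 600 and 86 reads, and Zrsr1, an imprinted gene related to splicing factors, 1030 and 170. Adam11, Gria3, Dclk2 and Emilin1, genes better known from nerve cells or matrix, ran from -3.30 for Adam11 to -2.23 for Emilin1.

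A pair of patterns bears on how such genes can be read, both chosen after their values were seen. Near-identical copies lay on opposite sides of equal levels. Eno1 had 9798 and 23599 reads and its copy Eno1b 2394 and 46. Rps3a1, a ribosomal protein gene, had 11160 and 20633 reads, and its processed copies Rps3a2 and Rps3a3 had 1511 and 138 and 3471 and 111. Reads of such copies can be assigned to either, so the Eno1 call is uncertain. Second, between Tnfaip3 and C920009B18Rik on chromosome 10, from 19000910 to 22321765 (GRCm38), 10 of 30 kept genes were called higher and 5 lower, 50% against 8.45% of all kept genes. This stretch holds Map7, H60b and Tnfaip3, and Ifngr1, the interferon gamma receptor, with 0.91 (0.86 to 0.95). The labels give no strain, and why neighbouring genes and copies differ was not tested.

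Set beside the stimulated pair of libraries, which shares no sample with the unstimulated one, part of the difference was read again. In that pair 14378 genes were kept and 1066 called (7.41%), 447 higher (3.11%) and 619 lower (4.31%). Of the 692 genes called higher when unstimulated 436 were kept there, and 127 of these were called higher again and 20 lower. Of the 589 called lower 333 were kept, and 101 were called lower again and 7 higher. The same animal may have given both libraries of a genotype, so this is no replicate of the genotype.

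Gene groups can be set side by side in the 2 pairs. Interferon-stimulated effectors had a median log2 ratio of -1.23 in the stimulated pair, with 25 lower and 0 higher of 43 kept. The interferon-gamma-inducible GTPases had -0.92 there, with 8 of 17 called lower. The sensors and inducers had -0.56, with 5 of 15 called lower, against 4.31% of all genes kept in that pair. The gamma-delta and type 17 list had 1.87. Class II presentation genes had -0.24, with 1 called higher and 1 lower of 10 kept, against 3.11 and 4.31% of all genes kept there. The killer lectin receptors had 1.43, and Klrc1 had 2.62 (2.41 to 2.86), close to its unstimulated 2.44. Memory surface genes had 0.21 and immediate-early genes 0.03, nearer to the stimulated median over all kept genes of 0.00 than the unstimulated 1.05 and -0.65. Cxcr3 had 2.54 (2.28 to 2.84) and Cd44 1.13 (1.05 to 1.22), whereas Tbx21 had 0.03 (-0.05 to 0.10) and Il2rb -0.20 (-0.25 to -0.16). Whether the 2 pairs differ was not tested for any of these.

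Among genes named here, 105 called ones were kept in the stimulated pair. Of these 87 had the same sign there, 45 were called the same way and 3 the opposite way. With the whole interval beyond 4-fold in both pairs, 6 genes were higher, Map7, Rab6b and Klrc1 among them, and 10 were lower, BC018473, Zfp990, Eno1b and H60b among them. Map7 had 3.72 (2.98 to 5.42) and Rab6b 3.58 (3.00 to 4.57) when stimulated.

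**Figure D5:**
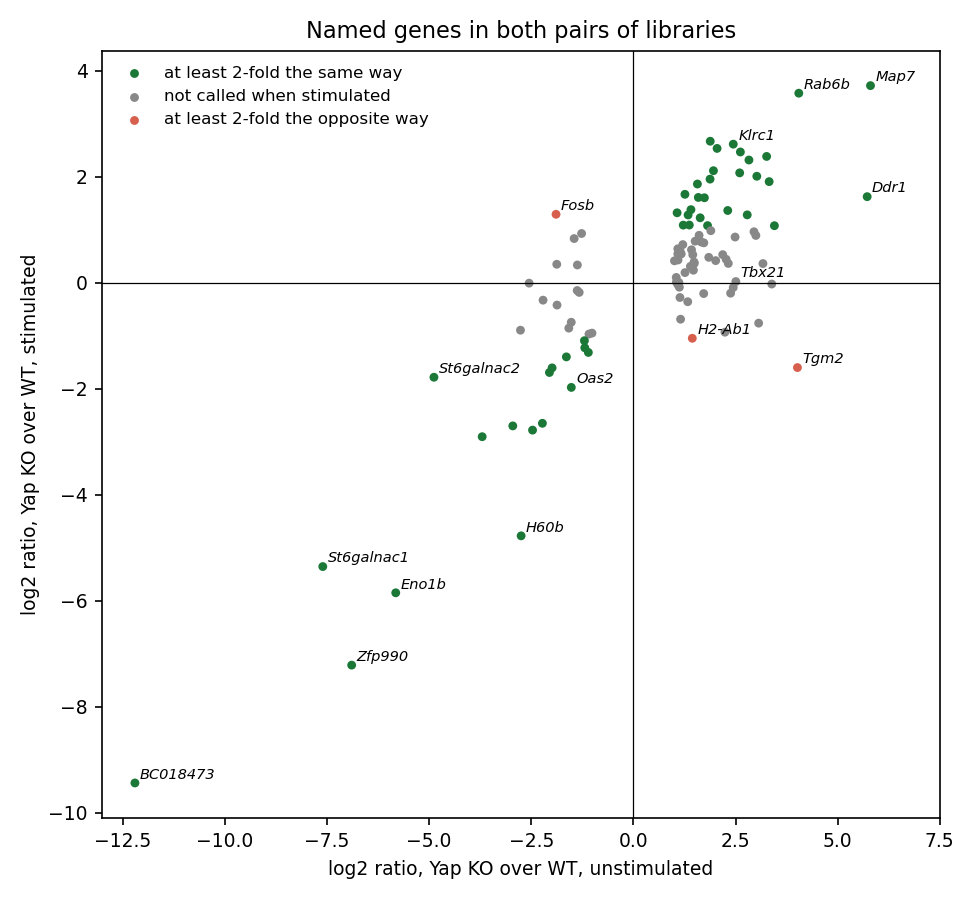
Each point is 1 of the 105 named genes called in the unstimulated pair and kept in the stimulated pair, with its log2 ratio of Yap KO over WT in unstimulated libraries across and in stimulated libraries upward. Green points (45) were called the same way in both pairs, red points (3) the opposite way, and grey points were not called when stimulated. Map7, Rab6b and Klrc1 lie high on both axes, BC018473, Zfp990 and Eno1b low on both. Where a library has 0 reads the drawn ratio depends on the prior count of 2.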

How the data were processed

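RNA of 4 mouse libraries was counted per gene, and the 2 unstimulated ones are compared. The authors deposited raw read counts per Ensembl gene identifier, with 5 summary entries that were left out. Reads were assigned on mm9, per the submitters' processing notes. The sources used here name no aligner, annotation release or strand setting. Of 50686 identifiers 50462 matched a symbol in GENCODE M21, from which coordinates on GRCm38 were taken. Many identifiers are later than mm9, so the build is unsettled. Without a known strand setting, genes on opposite strands cannot be told apart, and 34.0% of kept genes have exons opposite another gene.

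Libraries were scaled with TMM (edgeR 4.0.16) over all 4 libraries on 15394 genes passing filterByExpr (minimum count 10). Log2 ratios used a prior count of 2, and their 95% intervals are exact (Clopper-Pearson, conditional binomial; SciPy 1.17.1) on the counts without it. Level intervals are exact Poisson intervals. All intervals reflect the counting of reads, which may include copies of 1 molecule. With 1 library a side no test and no adjustment was made. The reads in genes, 22088392 and 25419974, set the precision. The calculation was tested on simulated data.

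Members, 34 gene groups and 13 marker lists were chosen with earlier results of these data known. Lists share members, so a called gene can count in several lists. Named are the 15 genes each way with intervals farthest from 0 (at least 5 CPM in 1 library, leaving out unnamed models and receptor segments), up to 4 each way per list, the 8 largest differences in CPM each way and fixed check genes. Genes named beyond this rule were chosen after their values were seen: Eomes, Tcf7, Id2, Ccr7, Il7r, Il2rg, Csf2rb, Cd44, Ahnak, Anxa2, Klrd1, Tcrg-C1, Tcrg-C2, Trdc, Pecam1, Il17a, Il17f, Gzma, Gzmb, Prf1, Ifng, Slfn5, Ifit3b, Cmpk2, Ly6a, Ifi27, Oas1g, Irf1, Irf7, Irf9, Stat2, Ifnar1, Ifnar2, Jun, Myc, Hspa8, Lats2, Stk3, Stk4, Sav1, Mob1a, Ciita, Ighm, Ctla2a, Rps3a1 to Rps3a3, Ifngr1, Jmjd6, the genes listed at 0, and V segments. Alternatives covered scaling, the filter, the prior count, the interval, gene classes and the motif strand.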

Additional observations from a re-analysis of the deposited data

Results flagged for a closer look

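The unstimulated and stimulated pairs gave opposite calls for 3 named genes. Fosb had a log2 ratio of -1.89 (-2.32 to -1.55) unstimulated, from 251 and 75 reads, and 1.29 (0.36 to 2.68) stimulated, from 10 and 26 reads. H2-Ab1 had 1.44 (1.31 to 1.58) unstimulated and -1.05 (-1.28 to -0.83) stimulated, from 533 and 243 reads, while H2-Aa had 1.09 (0.65 to 1.60) stimulated. Tgm2 had 4.02 (3.29 to 5.54) unstimulated and -1.60 (-3.04 to -0.70) stimulated, from 33 and 9 reads, with 21.8% of its exons opposite another gene. Each pair is 1 library a side, and the difference between the pairs was not tested.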

How the results depend on the processing

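No paired analysis was possible because the unstimulated groups have 1 library each and share only the replicate number 1. For the same reason no library could be left out. Of 127 named called genes, 8 lost their call under at least 1 alternative and none reversed. All 8 (Bik, Fut7, Hk2, Ldhb, Nuak2, S100a8, St3gal5 and Wwc2) did so with a prior count of 10. The numbers of genes called depended on how low counts were treated. Against 692 higher and 589 lower genes, a minimum of 100 reads gave 301 and 171, a minimum of 1 read 972 lower, a prior count of 10 gave 372 lower, and protein-coding genes alone 259 lower. A mean of at least 10 CPM, an alternative chosen after seeing the data like the protein-coding one, gave 108 higher and 65 lower, and a B cell marker median of 0.16. The higher share of calls was 54% and became 63.8% with 100 reads and 67% among protein-coding genes, while other scalings gave 51.1 to 52.4%. Of 452 list medians recomputed, 3 left the interval of the first value, this B cell median and that of ribosomal proteins with upper-quartile factors (0.0512) and with TMM over the 2 libraries alone (0.0558). No scaling moved a median by more than 0.04. Elements that read as 2 TTTC blocks on the coding strand were in 28.2% of effector windows. Depth limits genes under 1 CPM, of which 26.0% were called, and 1 library a side limits every value.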

Other observations

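On either side of Yap1, none of 7 kept genes within 1 Mb was called. Within 10 Mb, 2 of 44 were called higher and 5 lower, against 4.56 and 3.88% of all kept genes. Endod1 and Smco4 had 157 and 386 and 17 and 45 reads, and the lower genes included Gpr83 and Izumo1r, which encodes folate receptor 4 and marks anergic and regulatory T cells, with 36 and 1 and 54 and 19 reads. Gm10718, Gm17571 and Gm26870 were the others. These genes were chosen by position, after their values were seen.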
